A study of Oryza sativa with 24 samples.

Results

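The regions described here are the peaks that surround the 12 rice centromeres. A peak was a member when its midpoint lay within 1 Mb of a fixed position on its chromosome, from 16.7 Mb on chromosome 1 and 9.7 Mb on chromosome 4 to 2.8 Mb on chromosome 9. The members numbered 15972 of the 410072 peaks in 16 lists. The windows are 2 Mb each and 24 Mb together, which is 6.45% of the span of the chromosomes, and every value below is set beside the rest of the same chromosomes. The positions carry no centromere annotation in the files, and neither centromeric repeats nor the centromeric histone were measured, so the name rests on the positions.

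The lists come from seedling shoots of Oryza sativa at the 4-leaf stage, after 4 weeks of growth in a greenhouse. The 4 lines were Nipponbare, a japonica cultivar, 93-11, an indica cultivar, and the reciprocal F1 hybrids of both, here called Nipponbare/93-11 and 93-11/Nipponbare as in their labels. The labels name no seed parent and no transgene or treatment. DNA methylation was mapped with the enzyme McrBC, which digests DNA at methylated sites, and trimethylation of histone H3 at lysine 4 (H3K4me3), acetylation at lysine 9 (H3K9ac) and trimethylation at lysine 27 (H3K27me3) by chromatin immunoprecipitation. Each combination of mark and line had 1 library, from whole shoots of many cell types, so differences between lines were not tested; the 95% intervals below are exact and cover counting error only. The lists held 17477 to 31942 peaks on the 12 chromosomes, and their sequencing depth is unknown.

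Plant centromeres assemble on nucleosomes with a special H3 variant, in rice mostly over satellite repeats and centromere-specific retrotransposons. The flanking chromatin is rich in transposable elements and heavily methylated, and some rice centromeres are known to hold transcribed genes. H3K4me3 and H3K9ac mark the starts of active genes, and H3K27me3 is the mark of Polycomb repression, mostly over genes that are silent or tissue-specific.

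All 3 histone marks were sparse around the centromeres. Listed in the order Nipponbare, 93-11, Nipponbare/93-11 and 93-11/Nipponbare, the windows held 996, 898, 1064 and 1045 H3K4me3 peaks. These counts are 41.5, 37.4, 44.3 and 43.5 peaks per Mb in the windows, against 78.4, 76.5, 85.1 and 82.5 per Mb in the rest. The ratio of the densities, windows over rest, was 0.530, 0.489, 0.521 and 0.527, and was lowest in 93-11. The interval for 93-11 ran from 0.457 to 0.523 and that for Nipponbare from 0.497 to 0.564, so the intervals of these libraries overlapped.

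H3K9ac, which marks much the same places, gave ratios of 0.535, 0.482, 0.521 and 0.522, from 1079, 925, 1107 and 1051 window peaks. H3K27me3 was the sparsest mark, with 470, 493, 521 and 527 window peaks in the same order. Its density was 19.6 to 22.0 per Mb in the windows and 48.9 to 57.3 per Mb in the rest. The H3K27me3 ratios of 0.401, 0.391, 0.381 and 0.383 all lay below those of both other histone marks, and no H3K27me3 interval, the highest reaching 0.439, overlapped an H3K4me3 interval, the lowest starting at 0.457. Every histone ratio was below 1 on all 12 chromosomes in all 4 lists.

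DNA methylation behaved otherwise. The windows held 1657, 1318, 1401 and 1420 methylation peaks in the order of lines above. In Nipponbare they were denser than in the rest, at 69.0 against 64.5 per Mb (ratio 1.07, 95% interval 1.02 to 1.12), with 8 of 12 chromosomes above 1. In the other lists they were sparser, with ratios of 0.910 (0.860 to 0.962) in 93-11, 0.886 (0.839 to 0.935) in Nipponbare/93-11 and 0.885 (0.838 to 0.934) in 93-11/Nipponbare. These directions depended on the window and on peak width: with 0.5 Mb on each side Nipponbare was at 0.974, with 2 Mb 93-11 was at 1.02 and 93-11/Nipponbare at 1.01, and when only peaks as wide as their list's median or wider were counted all lines were above 1, at 1.20 to 1.41. Without chromosome 1 or 2 the interval for Nipponbare reached just below 1 (0.999 and 0.998). The covered share of the windows was above that of the rest in every line: 14.9% against 11.3% in Nipponbare, 12.1% against 10.5% in 93-11, 15.6% against 12.7% in Nipponbare/93-11 and 15.8% against 12.9% in 93-11/Nipponbare. With the 1 Mb windows the peaks were thus sparser in 3 of the lists and wider in all 4. At 1 to 2 Mb from the positions the covered share was 15.4%, 13.6%, 15.8% and 16.9% in the order of lines above. It was above that of the windows in each line, so the higher coverage was not limited to the windows.

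**Figure D1:**
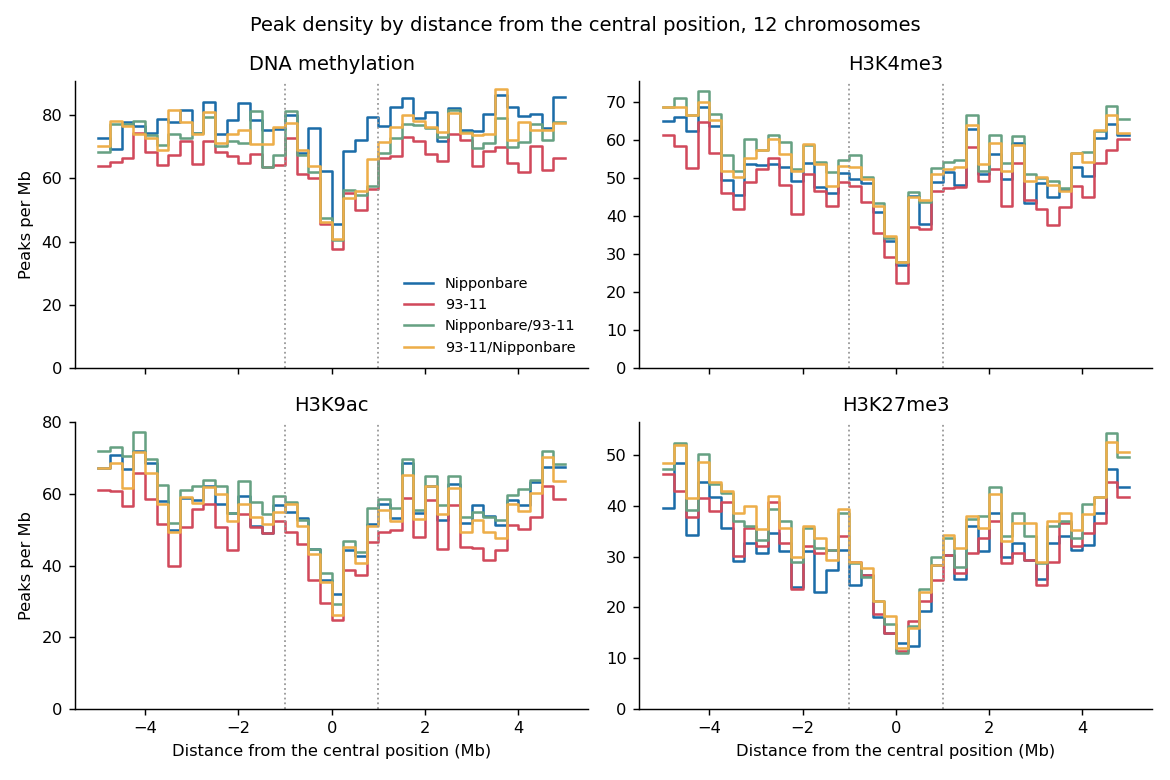
Peaks per Mb (y axis) by signed distance from the central position (x axis, Mb, bins of 0.25 Mb, 12 chromosomes together) for each mark, with 1 line for each rice line and dotted lines at 1 Mb on either side. All marks were at their lowest around the position, and the histone marks stayed below their levels at 5 Mb throughout the windows.

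The dip had no step at the 1 Mb limit. H3K4me3 in Nipponbare numbered 30.2 peaks per Mb within 0.25 Mb of the position, then 43.2, 43.3 and 49.3 in the next bins of 0.25 Mb, 51.6 at 1 to 2 Mb and 56.5 at 3 to 5 Mb. In 93-11 the same series of H3K4me3 densities began at 25.8 and reached 47.3 in the outermost bin of the window. In Nipponbare H3K27me3 was lower over a broader core, with 14.0 and 15.2 peaks per Mb in the first and second bins. It was at 22.8 and 26.3 in the next bins and 36.9 at 3 to 5 Mb. In the other lists H3K27me3 rose more by the second bin, from 13.2 to 18.0 in 93-11, 13.8 to 18.8 in Nipponbare/93-11 and 15.2 to 18.7 in 93-11/Nipponbare. Both marks were thus denser beyond the windows than in any bin of them.

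DNA methylation peaks were also fewest at the centre. In Nipponbare they numbered 54.0 per Mb within 0.25 Mb and 79.7 per Mb at 0.75 to 1 Mb, which is the density found at 1 to 2 Mb (79.7) and close to that at 3 to 5 Mb (78.6). In 93-11/Nipponbare the same densities were 43.5, 71.8, 75 and 76. The covered share was also lower within 0.25 Mb than at 1 to 2 Mb in every line, at 13.8% against 15.4% in Nipponbare, 10.1% against 13.6% in 93-11, 13.9% against 15.8% in Nipponbare/93-11 and 15.2% against 16.9% in 93-11/Nipponbare. Within 0.1 Mb of the positions it was 12.1%, 8.49% and 13.2% in the first 3 of these lines and 18.1% in 93-11/Nipponbare. These shares count whole peaks by midpoint, so a few wide peaks weigh heavily within 0.1 Mb. The value of 93-11/Nipponbare includes peaks of 97687 bp on chromosome 9 and 82260 bp on chromosome 4. That of Nipponbare/93-11 includes a peak of 73396 bp on chromosome 9, and that of Nipponbare a peak of 30641 bp on chromosome 7.

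The chromosomes differed among themselves in similar ways for both active marks. The mean H3K4me3 ratio over the 4 lists was lowest on chromosome 4 (0.376) and chromosome 3 (0.378), and highest on chromosome 12 (0.674) and chromosome 9 (0.639). On chromosome 4 the window held 51 to 61 H3K4me3 peaks, and on chromosome 2 it held 90 to 110. The H3K9ac ratio ran from 0.369 on chromosome 4 to 0.700 on chromosome 12. The H3K27me3 ratio was also lowest on chromosome 4, at 0.271 with 22 to 32 peaks, but its highest values were on chromosome 10 (0.522) and chromosome 2 (0.513), and chromosome 12 was at 0.386. Chromosome 12, with the densest active marks relative to its arms, was therefore not among the densest for H3K27me3.

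When each chromosome was cut into tiles of 2 Mb outward from the window, the window was the poorest tile in 33 of 48 combinations of chromosome and list for H3K4me3, in 36 of 48 for H3K9ac and in 43 of 48 for H3K27me3. For DNA methylation it was the poorest tile in 4 of 48. The H3K27me3 window was among the poorest 3 tiles in 48 of 48 combinations, and the H3K4me3 window in 44 of 48. On chromosome 12 the H3K4me3 window was the 3rd poorest of 13 tiles in Nipponbare and the 6th poorest in 93-11. On chromosome 9 it was the 4th poorest of 10 in Nipponbare, so low density did not single out every window.

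**Figure D2:**
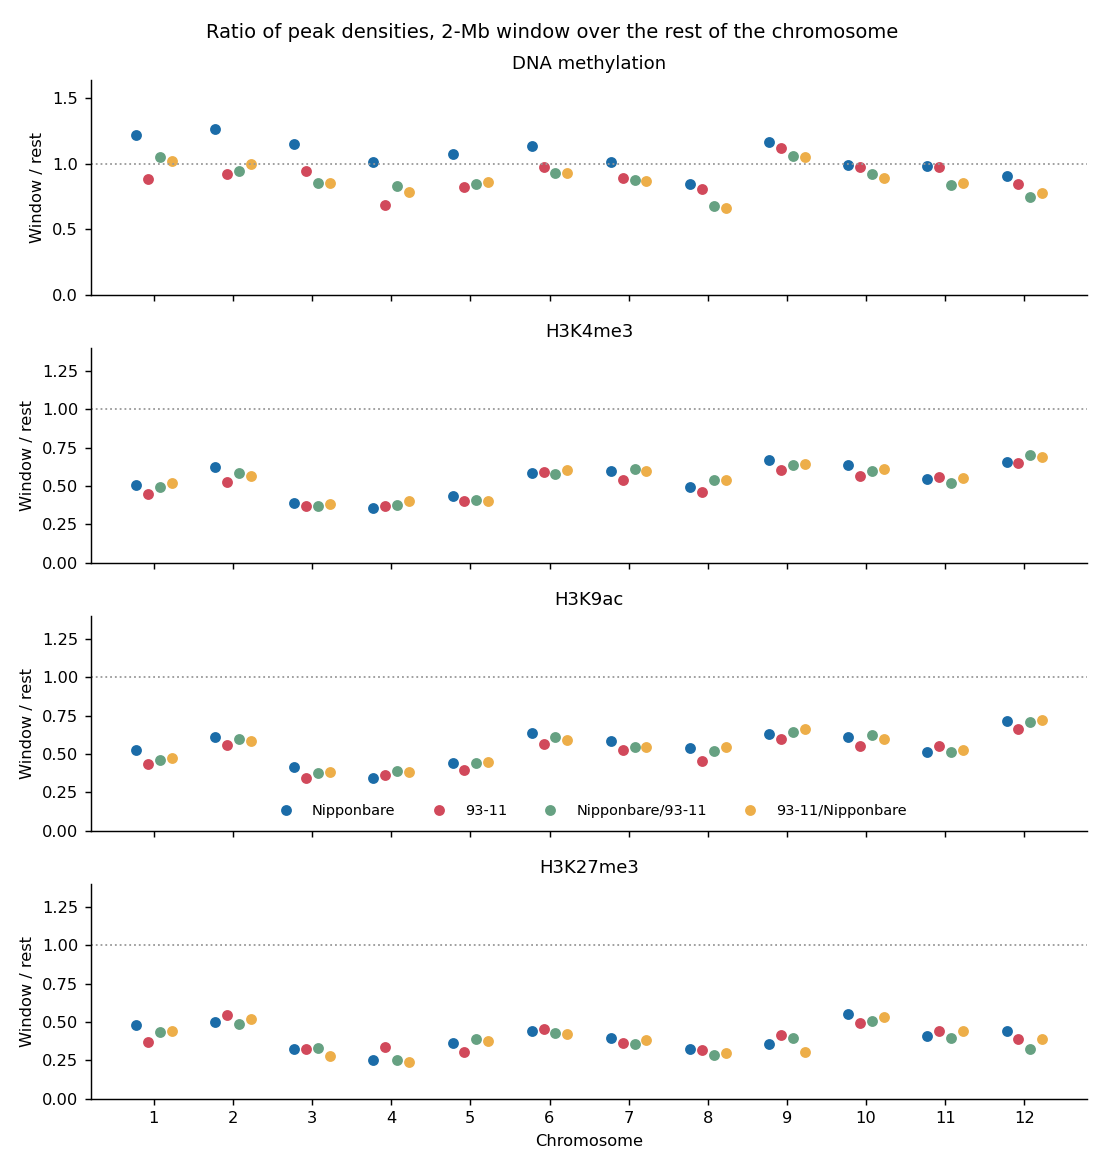
Ratio of peak densities, window over the rest of the same chromosome (y axis), for each chromosome (x axis), mark (panels) and rice line (colours), with a dotted line at 1. All histone points lie below 1, from 0.241 for H3K27me3 on chromosome 4 to 0.721 for H3K9ac on chromosome 12, and the DNA methylation points lie between 0.665 and 1.26.

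The methylation ratio varied by chromosome too. Its mean over the lists was highest on chromosome 9 (1.099), the chromosome whose position lies nearest to an end, and was above 1 there in all lines (1.05 to 1.16). It was lowest on chromosome 8 (0.749), where all lines were below 1 (0.665 to 0.848). On chromosome 4 the lines ran from 0.681 in 93-11 with 82 peaks to 1.01 in Nipponbare with 128 peaks, and on chromosome 2 from 0.924 in 93-11 with 110 peaks to 1.26 in Nipponbare with 150 peaks.

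Peak widths, the only other measurement that the lists hold, differed from the rest in opposite directions for methylation and the histone marks. The median width of methylation peaks was 1726, 1806, 2035 and 2028 bp in the windows and 1445, 1436, 1588 and 1571.5 bp in the rest, in the order of lines above. It was larger in the window in 48 of 48 combinations of chromosome and list. H3K4me3 peaks were narrower in the windows, with medians of 1246.5, 1246, 1254 and 1340 bp against 1358, 1401, 1373 and 1487 bp. H3K9ac medians were 1426, 1356, 1349 and 1374 bp in the windows and 1507, 1449, 1436 and 1459 bp in the rest. H3K27me3 medians were 1248, 1212, 1275 and 1289 bp in the windows and 1450, 1433, 1479 and 1491 bp in the rest. The window median was the larger in 2 of 48 combinations for H3K4me3 and in 3 of 48 each for H3K9ac and H3K27me3. At 1 to 2 Mb from the positions the H3K4me3 medians were 1257, 1260, 1258 and 1351 bp. The H3K9ac medians there were 1413, 1353.5, 1342 and 1387 bp. Both are close to the windows, so the narrower active peaks were not limited to them. For H3K27me3 (1367, 1330, 1388 and 1403.5 bp) and methylation (1591.5, 1681, 1844.5 and 1823 bp) the medians there lay between windows and rest.

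The widest methylation peaks were concentrated here. Of the widest 1% of methylation peaks in each list, the windows held 14.0% in Nipponbare (34 of 242), 17.0% in 93-11 (38 of 224), 23.8% in Nipponbare/93-11 (58 of 244) and 21.9% in 93-11/Nipponbare (54 of 247), while they held 5.75 to 6.87% of all methylation peaks. Of the widest 1% of histone peaks the windows held 0 to 3 peaks in each list, while they held 2.56 to 3.56% of all histone peaks. For H3K27me3 the upper limits were 3.14% in Nipponbare, 3.79% in 93-11 and 2.70% in Nipponbare/93-11. The shares of all H3K27me3 peaks there were 2.69%, 2.63% and 2.56%, so no deficit was detectable in these lists. Over the 4 methylation lists, 7 peaks were 30 kb or wider, and all 7 lay in the windows; the widest methylation peak outside them was 20427 bp.

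These very wide peaks differed from list to list. The widest, on chromosome 9 at 2787791 to 2885478, was a single peak of 97687 bp in 93-11/Nipponbare. The list of Nipponbare/93-11 had a peak of 73396 bp with the same start, 2787791, while 93-11 had 1 peak that covered 3.28% of the interval and Nipponbare had none. On chromosome 1, the interval 17071654 to 17159975 was 1 peak of 88321 bp in Nipponbare/93-11. Nipponbare had a peak of 20313 bp within it, and neither 93-11 nor 93-11/Nipponbare had any. The widest peak of Nipponbare, 86923 bp on chromosome 7 at 12185186 to 12272109, overlapped no methylation peak of the other lines, and neither did a second one of 30641 bp nearby, at 12111221 to 12141862. On chromosome 4 a peak of 82260 bp in 93-11/Nipponbare (9745190 to 9827450) held 1 Nipponbare peak that covered 24.2% of it. On chromosome 6 a peak of 66424 bp in Nipponbare/93-11 (15423584 to 15490008) held 1 peak of 93-11 that covered 4.13%. Several of these intervals lay within longer stretches where another list had no methylation peak. In Nipponbare that stretch was 2716029 to 2887947 on chromosome 9. In 93-11 it was 17062133 to 17292323 on chromosome 1, 9711758 to 9871438 on chromosome 4 and 12100652 to 12281603 on chromosome 7. How much of these stretches could be aligned is not known, and methylation throughout a very wide peak was not tested.

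In 93-11 no methylation peak reached 20 kb, and the widest in the windows was 14571 bp. The very wide peaks were almost free of histone peaks. None of the 12 histone lists had a peak in those on chromosomes 1, 4 and 9 or in the wider one on chromosome 7. That on chromosome 6 held 1 H3K9ac peak of 93-11 and 1 H3K27me3 peak of Nipponbare, and the narrower one on chromosome 7 held 1 H3K9ac peak of 93-11.

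Long stretches with no peak at all also lay mostly in the windows. In the whole genome, 7 stretches of 50 kb or more had no peak in any of the 16 lists, and 6 of them lay in the windows. The longest, 101.83 kb on chromosome 1 (17190493 to 17292323), lies 0.49 Mb from the position. The others in the windows were 80.7 kb on chromosome 2 (13607738 to 13688467), 71.8 kb on chromosome 5 (12435835 to 12507601), 71.6 kb on chromosome 9 (2716227 to 2787791), 63.1 kb on chromosome 12 (12007556 to 12070702) and 54.6 kb on chromosome 8 (12909225 to 12963858). The stretch on chromosome 9 ends where the very wide methylation peaks of both hybrids begin. The one outside the windows measured 58.1 kb, on the long arm of chromosome 12. On chromosomes 3, 4, 6, 7, 10 and 11 the longest empty stretch of the window, 24.1 to 36.4 kb, was not the longest of its chromosome.

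**Figure D3:**
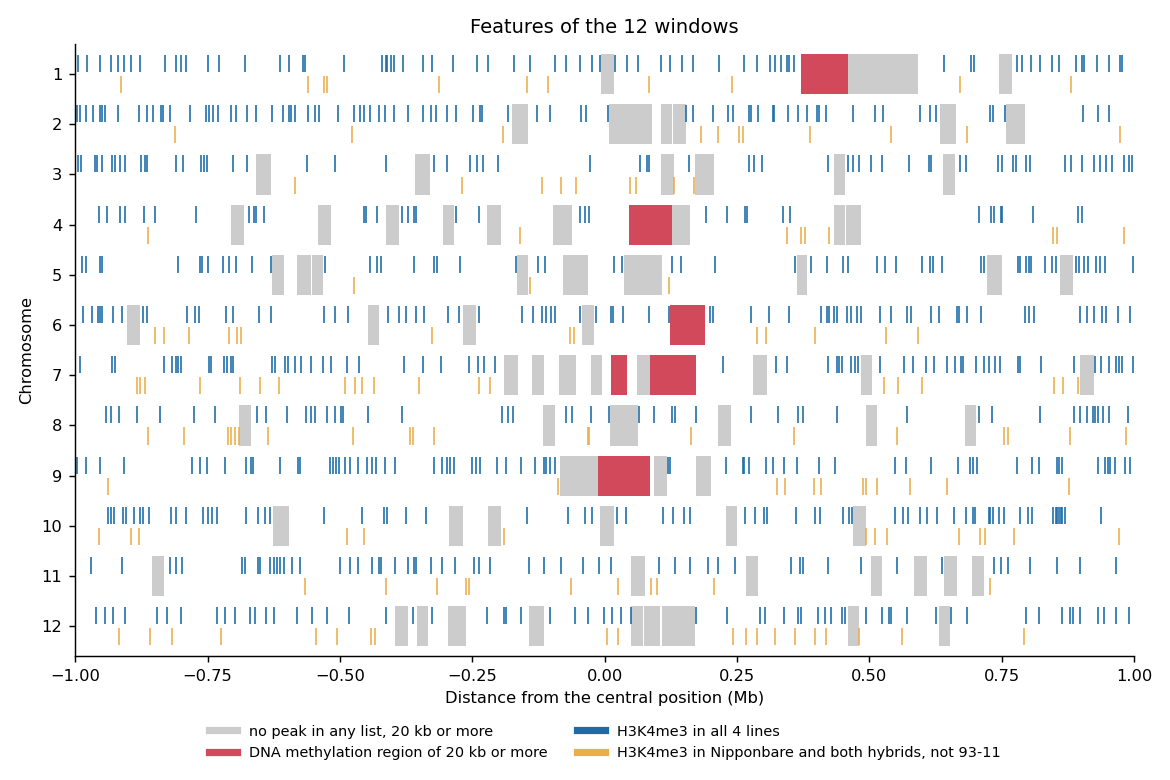
Map of the 12 windows by distance from the central position (x axis, Mb), drawn to scale for wide features. Grey bars are the 77 stretches of 20 kb or more without a peak in any list, red bars the 6 merged methylation regions of 20 kb or more, blue ticks the 767 H3K4me3 regions of all 4 lines and orange ticks the 155 H3K4me3 regions of Nipponbare and both hybrids that are not listed in 93-11.

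H3K4me3 regions of all 4 lines nevertheless lay near most of the positions. The positions are rounded, such as 11.9 Mb on chromosome 12, so distances of a few kb do not measure distance from a centromere. The windows held 767 H3K4me3 regions of all 4 lines in 24 Mb, and distances from other points were not computed. The H3K4me3 region listed in all 4 lines that lay nearest to the position was within 0.999 to 27.9 kb of it on 10 chromosomes. On chromosome 12 it lay 0.999 kb away, at 11897410 to 11899001, and carried H3K9ac and H3K27me3 in all lines. On chromosome 2 it lay 4.86 kb away, at 13604859 to 13607738, and on chromosome 8 it lay 7.31 kb away, at 12907307 to 12909225; both carried H3K9ac in all lines and both border the empty stretches of their windows. On chromosome 9 the nearest was 93.1 kb away, at 2704478 to 2706926, and this region carried all 4 marks in all 4 lines.

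Chromosome 7 was the exception, with its nearest H3K4me3 region of all lines 206.9 kb from the position. Nipponbare had no H3K4me3 peak from 11893036 to 12323277, a stretch of 430.2 kb, and the stretches of the hybrids, in the order above, were 414.3 and 430.1 kb. In 93-11 the H3K4me3-free stretch was shorter, 264.4 kb from 12058897 to 12323256. The H3K27me3-free stretch of Nipponbare on chromosome 7 was 414.6 kb long. Spacing was wider across the windows as a whole: the median gap between neighbouring H3K4me3 peaks was 14.0, 15.2, 12.7 and 13.1 kb in the windows against 7.13, 6.87, 6.46 and 6.55 kb in the rest.

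The parents shared fewer of their peaks around the centromeres when Nipponbare's lists were looked up in those of 93-11. A peak counted as shared when it overlapped a peak of the other list by at least 1 bp. For DNA methylation, 44.8% of the Nipponbare window peaks were listed in 93-11 (42.4 to 47.3%), against 54.9% in the rest; 914 of 1657 were not listed there, beside 45.8% of all Nipponbare methylation peaks. For H3K4me3 the shares were 78.2% (75.5 to 80.7%) and 86.9%, with 217 of 996 window peaks not listed, beside 13.4% of all. For H3K9ac they were 74.4% (71.7 to 77.0%) and 83.3%, with 276 of 1079 not listed, beside 17.0% of all. For H3K27me3 they were 68.1% (63.7 to 72.3%) and 78.0%, with 150 of 470 not listed, beside 22.3% of all. The window share was the lower on 11 of 12 chromosomes for each histone mark and on 10 of 12 for DNA methylation.

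The opposite lookup differed less. Of the 93-11 window peaks, 55.8% for DNA methylation were listed in Nipponbare against 58.5% in the rest (582 of 1318 not listed, beside 41.7% of all), 86.4% against 89.0% for H3K4me3 (122 of 898 not listed, beside 11.1% of all) and 87.1% against 87.9% for H3K9ac (119 of 925 not listed, beside 12.1% of all). The rest's H3K9ac share lay within the interval of the window share (84.8 to 89.2%). For H3K27me3 the shares were 64.7% (60.3 to 68.9%) and 72.6%, with 174 of 493 not listed, beside 27.6% of all. The share of the rest also lay within the window interval for DNA methylation (53.1 to 58.5%) and just outside it for H3K4me3 (84.0 to 88.6%).

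The hybrids shared their active marks in the windows as in the rest. Of the window peaks of Nipponbare/93-11, 94.4% for H3K4me3 (92.8 to 95.7%) and 92.2% for H3K9ac (90.5 to 93.7%) were listed in 93-11/Nipponbare, against 93.7% and 91.1% in the rest. The H3K4me3 peaks not listed were 60 of 1064, beside 6.24% of all, and the H3K9ac peaks not listed were 86 of 1107, beside 8.81% of all. For H3K27me3 the shares were 86.2% (82.9 to 89.0%) and 87.5%, with 72 of 521 not listed, beside 12.5% of all. DNA methylation was the exception, at 74.0% (71.6 to 76.3%) in the windows against 79.4% in the rest, with 364 of 1401 not listed, beside 20.9% of all.

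The lookup from 93-11/Nipponbare in Nipponbare/93-11 gave the same picture. The window peaks not listed were 46 of 1045 for H3K4me3, beside 3.58% of all, 33 of 1051 for H3K9ac, beside 3.87% of all, 80 of 527 for H3K27me3, beside 13.0% of all, and 379 of 1420 for DNA methylation, beside 21.9% of all. The shares listed were 95.6%, 96.9%, 84.8% and 73.3% in the windows and 96.5%, 96.1%, 87.1% and 78.3% in the rest, in this order of marks.

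**Figure D4:**
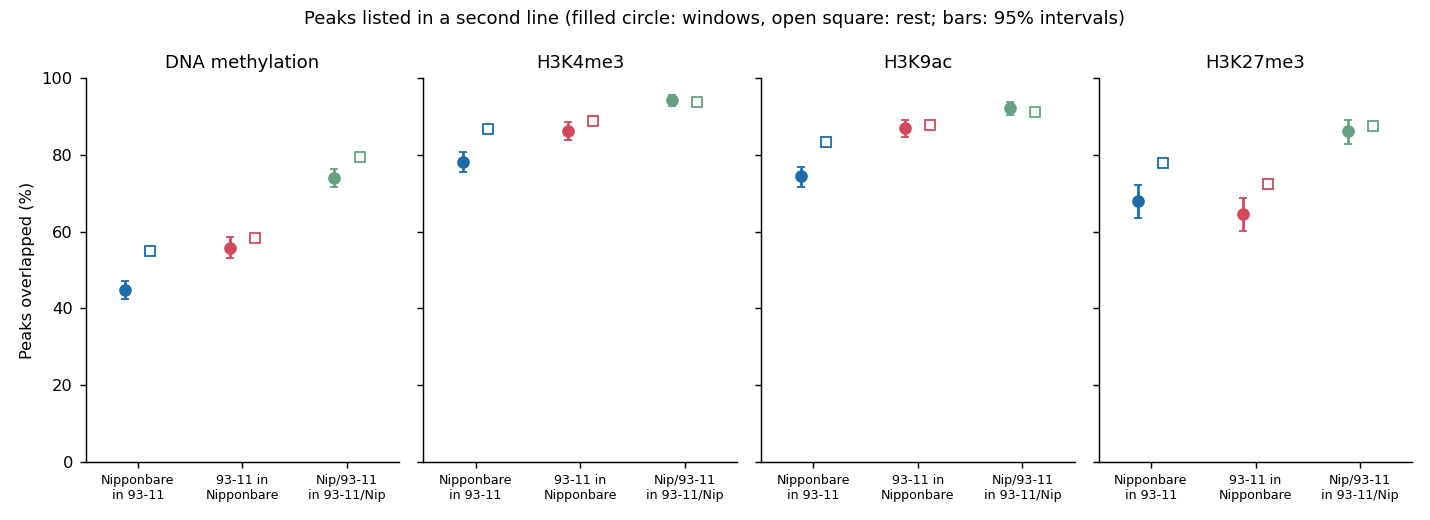
Percent of peaks of a list that overlap a peak of a second list (y axis) for Nipponbare peaks in 93-11, 93-11 peaks in Nipponbare and peaks of Nipponbare/93-11 in 93-11/Nipponbare (x axis), by mark. Filled circles are the windows and open squares the rest, with 95% exact binomial intervals; the windows lie below the rest for Nipponbare peaks in 93-11 in all panels, from 44.8% for DNA methylation to 78.2% for H3K4me3.

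When overlapping peaks of a mark were joined over the 4 lines, 66.1% of 1160 H3K4me3 window regions were listed in all 4 lines, against 73.7% of the rest. The same shares were 62.5% and 67.9% for H3K9ac, 41.2% and 49.8% for H3K27me3, and 22.9% and 30.4% for DNA methylation. A class that took a larger share in the windows was that of regions listed in both hybrids and in Nipponbare but not in 93-11. It held 155 of the H3K4me3 regions, 13.4% (11.5 to 15.5%) against 7.17% in the rest, and 184 of the H3K9ac regions, 14.9% (12.9 to 17.0%) against 7.63%. The share was the larger in the window on 11 of 12 chromosomes for both marks. It was highest for H3K4me3 on chromosome 8 (21.5%, 20 regions) and chromosome 12 (19.6%, 20 regions), and lowest on chromosome 5 (3.90%, 3 regions). How well the reads of each line aligned in the windows is not known, so an unlisted region is not shown to lack the mark.

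The mirror class, listed in both hybrids and in 93-11 while Nipponbare lacked it, made up 5.60% of H3K4me3 window regions (4.35 to 7.09%) against 5.28% in the rest. For H3K9ac it was 3.88% (2.88 to 5.12%) against 4.76%. The 2 classes also differed in what else the missing parent listed at the same place. Of the 155 H3K4me3 regions without 93-11, 26.5% (19.7 to 34.1%) overlapped a 93-11 peak of any of the other 3 marks, and of the 65 without Nipponbare, 66.2% (53.4 to 77.4%) overlapped a Nipponbare peak. In the rest of the chromosomes these shares were 33.7% and 71.5%, so the gap between the classes was not limited to the windows.

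In the windows, the H3K4me3 peaks of Nipponbare that were not listed in 93-11 sometimes stood in a row. Such rows in the rest are not given here, so they are not shown to be particular to the windows. The longest such row was on chromosome 4, with 5 consecutive peaks over 86.1 kb (10069195 to 10155334), where 93-11 had no H3K4me3, H3K9ac or H3K27me3 peak. Methylation peaks there numbered 3 each in Nipponbare, 93-11 and Nipponbare/93-11 and 1 in 93-11/Nipponbare. Both hybrids had 5 H3K9ac peaks there, as Nipponbare did, but fewer H3K4me3 peaks, 4 in Nipponbare/93-11 and 3 in 93-11/Nipponbare. On chromosome 8 a row of 4 over 21.2 kb (12188259 to 12209420) had 4 H3K4me3 and 4 H3K9ac peaks in Nipponbare and in each hybrid, and no peak of any mark in 93-11. The longest row of the opposite kind was on chromosome 4, with 4 peaks of 93-11 over 130.1 kb (10227495 to 10357553) that were not listed in Nipponbare. There Nipponbare had 15 methylation peaks, 93-11 had 4, Nipponbare/93-11 had 5 and 93-11/Nipponbare had 8. Nipponbare also had 1 H3K9ac and 1 H3K27me3 peak there, as each hybrid did, and 93-11 had 3 of each. Each hybrid had 3 H3K4me3 peaks in this row. The rows on chromosomes 4 and 8 were singled out after their values were seen.

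Peaks of a single parent were found in the hybrids to different degrees. Of the H3K4me3 window peaks in Nipponbare but not in 93-11, 71.9% (156 of 217) were listed in both hybrids, against 64.6% in the rest; for H3K9ac these shares were 67.0% (185 of 276) and 53.9%. For DNA methylation the order was the opposite. Of the methylation peaks in Nipponbare but not in 93-11, 16.4% (150 of 914) were listed in both hybrids and 56.3% (515 of 914) in neither, against 25% and 45.1% in the rest. Of those in 93-11 but not in Nipponbare, 40.4% (235 of 582) were in both hybrids against 48.5% in the rest. Methylation regions listed in Nipponbare alone made up 20.5% of the 2516 window regions and 13.1% of the rest, and those of 93-11 alone 6.68% and 6.0%.

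Peaks of a hybrid that neither parent listed were few for the active marks. In Nipponbare/93-11 they were 29 of 1064 H3K4me3 window peaks, beside 3.81% of all its H3K4me3 peaks, and 33 of 1107 H3K9ac window peaks, beside 4.04% of all. In 93-11/Nipponbare they were 30 of 1045 for H3K4me3, beside 2.98% of all, and 20 of 1051 for H3K9ac, beside 3.11% of all. For H3K27me3 they were 41 of 521, beside 9.50% of all, in Nipponbare/93-11 and 51 of 527, beside 9.76% of all, in 93-11/Nipponbare. DNA methylation had more: 224 of 1401 window peaks of Nipponbare/93-11, beside 12.7% of all, and 185 of 1420 of 93-11/Nipponbare, beside 10.1% of all. These methylation shares were 16% and 13% of the window peaks, against 12.5% and 9.93% in the rest.

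The marks also combined differently near the centromeres. Nearly all H3K4me3 peaks overlapped an H3K9ac peak of the same line, 95.7%, 93.0%, 95.3% and 91.5% in the windows in the order of lines above. In the rest these shares were close, at 92.2%, 92.2%, 93.0% and 90.8%. The share of the rest lay within the window interval in 93-11 (91.1 to 94.6%) and 93-11/Nipponbare (89.6 to 93.1%). Fewer H3K4me3 peaks of the windows carried H3K27me3, at 39.2%, 45.1%, 41.4% and 41.6% against 47.0%, 51.2%, 52.7% and 52.2% in the rest. H3K4me3 peaks with H3K9ac and no H3K27me3 therefore took a larger share, 58.3% (55.2 to 61.4%) in Nipponbare against 48.3% in the rest. In 93-11 the same shares were 50.1% (46.8 to 53.4%) and 43.8%.

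Seen from the other side, H3K27me3 peaks in the windows more often overlapped H3K4me3. In Nipponbare 82.3% of H3K27me3 window peaks (78.6 to 85.7%) did so against 75% in the rest, and in 93-11 81.7% (78.0 to 85.1%) against 74.1%. H3K27me3 peaks with no other mark were 42 of 470 in Nipponbare and 49 of 493 in 93-11, which is 8.94% and 9.94% against 14.2% and 16.3% in the rest.

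Methylation peaks stood apart from the histone marks more often in the windows. Those with no histone peak made up 90.9%, 87.7%, 85.8% and 84.3% in the windows and 82.8%, 80.2%, 77.6% and 76.2% in the rest. In Nipponbare 2.66% of methylation window peaks overlapped H3K27me3 (44 of 1657) against 8.08% in the rest, and 4.95% overlapped H3K4me3 against 9.44%. From the side of H3K4me3 the difference ran the other way in 3 lines: 12.1% of the 93-11 window peaks, 13% of those of Nipponbare/93-11 and 15% of those of 93-11/Nipponbare overlapped a methylation peak, against 9.46%, 10.8% and 12% in the rest. In Nipponbare this share was 8.23% (6.60 to 10.1%) against 7.78%, so no difference was detectable there.

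H3K4me3 peaks that overlapped each of the other 3 marks of their line numbered 27 of 996 in Nipponbare, 40 of 898 in 93-11, 45 of 1064 in Nipponbare/93-11 and 51 of 1045 in 93-11/Nipponbare. These are 2.71%, 4.45%, 4.23% and 4.88% of the window peaks, against 3.61%, 4.32%, 5.23% and 5.72% in the rest, and each share of the rest lay within the interval of the windows, so no difference was detectable at these counts. The widest such region with all marks in Nipponbare, 2831 bp on chromosome 12 at 12070888 to 12073719, lies beside the empty stretch of that window, and its H3K27me3 was not listed in 93-11. The next, 2587 bp on chromosome 2 at 14015725 to 14018312, had all marks in all lines.

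Single regions show how the lines differed. The widest H3K27me3 member, 7796 bp on chromosome 4 at 9073666 to 9081462, was listed in 93-11 alone, with H3K9ac in both hybrids and no H3K4me3 in any line. The widest H3K9ac region of 93-11 and both hybrids that Nipponbare lacked, 3474 bp on chromosome 4 at 9692538 to 9696012, lay just below the position of 9.7 Mb and carried H3K4me3 in the same 3 lines. The widest H3K9ac region of Nipponbare and both hybrids that 93-11 lacked, 2443 bp on chromosome 12 at 11924060 to 11926503, had its midpoint 0.025 Mb above the position and also carried H3K4me3 in its 3 lines. A region on chromosome 5 near 12758433 was among the widest 3 for H3K4me3, H3K9ac and H3K27me3 alike, with all 3 marks in all 4 lines and no methylation peak.

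Sharing on chromosome 4, where the histone marks were sparse, differed by mark and direction. Of its 128 Nipponbare methylation peaks in the window, 31.3% (23.4 to 40.0%) were listed in 93-11, against 55.3% in the rest of the chromosome. Of the 32 H3K27me3 window peaks of 93-11, 46.9% (29.1 to 65.3%) were listed in Nipponbare against 71.6%. For H3K4me3, 76.5% of 51 Nipponbare peaks were listed in 93-11 (62.5 to 87.2%) against 87.2% in the rest, a value just inside the interval. The lowest such H3K4me3 share was on chromosome 8, at 67.1% of 73 peaks. Of the 22 Nipponbare H3K27me3 window peaks of chromosome 4, 68.2% were listed in 93-11. The same share was 68.1% over all windows and 78.4% in the rest of chromosome 4. Of the 58 H3K4me3 window peaks of Nipponbare/93-11 on chromosome 4, 96.6% were listed in 93-11/Nipponbare, against 93.2% in the rest of the chromosome.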

How the data were processed

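Each deposited file lists the peaks of 1 library in 3 columns, chromosome, start and end, with no height, score or p-value; the positions are the authors' own and are printed as deposited. Of the 24 labelled samples, 8 (mRNA and small RNA) are not analysed here. No source used here names the aligner, peak caller, threshold, control or genome build, so no gene was named. The members and lists were chosen with earlier results of these data known. A window holds the peaks with midpoints within 1 Mb of the position; the rest runs to the last peak of the chromosome. Organelle peaks (48) were left out. Width is end minus start. Intervals are Clopper-Pearson 95% intervals, for a density ratio from the share of peaks in the windows. Named regions followed a rule on distance, width and lines; chromosomes and rows of peaks described beyond it were chosen after values were seen. Python 3.11.15, pandas 2.3.3 and scipy 1.17.1 were used, and the routines were tested on simulated data. Alternatives changed the window, the peaks kept, merging, the rest, list length, overlap and chromosomes.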

Additional observations from a re-analysis of the deposited data

Results flagged for a closer look

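The density ratio of DNA methylation peaks, windows over rest, lay on opposite sides of 1 in the lines: 1.07 in Nipponbare against 0.910 in 93-11, 0.886 in Nipponbare/93-11 and 0.885 in 93-11/Nipponbare, each with an interval that leaves out 1 in windows of 1 Mb on each side. The contrast depended on the setting: Nipponbare was at 0.974 with 0.5 Mb, 93-11 was at 1.02 and 93-11/Nipponbare at 1.01 with 2 Mb, and all lines were at 1.20 to 1.41 when only peaks as wide as their list's median or wider were counted. With 1 library for each line the difference between the lines was not tested.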

How the results depend on the processing

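All histone density ratios stayed below 1 and all shares of Nipponbare peaks listed in 93-11 stayed below those of the rest under every alternative run. Median widths were rerun for Nipponbare only, and there they kept their side of the rest. The pooled methylation density ratio, 0.938, did not keep its direction: it was 1.05 with windows of 2 Mb on each side and 1.27 with peaks of at least the median width of their list, 0.836 with 0.5 Mb, 0.992 against a rest more than 5 Mb away and 0.968 with lists shortened to the shortest. By line, it was 0.974 in Nipponbare with 0.5 Mb, 1.02 in 93-11 and 1.01 in 93-11/Nipponbare with 2 Mb, and 1.25, 1.23 and 1.20 in 93-11, Nipponbare/93-11 and 93-11/Nipponbare with the wider peaks. With 0.5 Mb, 2 Mb, the wider peaks and the distant rest, the ratio of 0.517 for H3K4me3 was 0.451, 0.571, 0.375 and 0.463, that of 0.515 for H3K9ac was 0.449, 0.574, 0.414 and 0.462, and that of 0.389 for H3K27me3 was 0.299, 0.481, 0.261 and 0.347; with shortened lists H3K27me3 was 0.371. The share of Nipponbare peaks listed in 93-11 was 39.7% for DNA methylation, 63.6% for H3K4me3, 52.5% for H3K9ac and 60.8% for H3K27me3 with the wider peaks; 48.7% for DNA methylation with 2 Mb and 37.2% with 50% reciprocal overlap; 71.5% for H3K9ac and 60.6% for H3K27me3 with 0.5 Mb; and 63.2% for H3K27me3 with shortened lists. With 2 Mb the median width in Nipponbare was 1652 bp for DNA methylation and 1304 bp for H3K27me3. Leaving out each chromosome gave pooled ratios of 0.922 to 0.956 for DNA methylation, 0.507 to 0.535 for H3K4me3, 0.504 to 0.533 for H3K9ac and 0.377 to 0.398 for H3K27me3. The cause of these shifts was not tested. No paired analysis was possible because no combination of mark and line had more than 1 library. The unknown depth and threshold of each list limit all comparisons of density and sharing between lines. How well the reads of each line aligned in the windows is also unknown.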
